A study of Homo sapiens with 9 samples.

Results

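NOX1 encodes a membrane oxidase that makes superoxide. The gene was followed across 3 culture conditions of A549, an established human lung adenocarcinoma line whose cells usually grow as a layer on plastic. Of 53617 probe sets on the array, 1 (probe set 17112656) carried the symbol NOX1 in the platform annotation, and it stands for 1 of the 14884 genes that could be named. NOX1 was chosen by its log2 intensities in the 3 conditions, so its own levels are given as a description with no test. All cells were kept for 5 days in medium with 10% serum. The tested conditions were low-attachment plates with FP001, a medium additive, at 0.015% (w/v), and low-attachment plates with Milli-Q water in its place. The control condition was attachment plates, also with Milli-Q water in the medium. Each condition had 3 arrays, and A549 is 1 line. Whether the replicates were grown apart is not said in the labels, so each p-value speaks only of the scatter among these arrays, and that scatter can be technical.

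NOX1 belongs to the NADPH oxidase family, whose members pass electrons from NADPH inside the cell across a membrane to oxygen. The NOX1 protein works with the membrane subunit CYBA (p22phox), the organizer NOXO1, the activator NOXA1 and the small GTPase Rac. Colon epithelium is the tissue best known for it. The superoxide it makes turns into hydrogen peroxide, which superoxide dismutases produce and which catalase, glutathione peroxidases and peroxiredoxins remove.

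Attachment replicate 1 did not follow the other arrays (no rank correlation with any of them was above −0.00191), and it was left out of all values unless it is named. The other 8 arrays had median intensities of 23.3 to 24.1, total intensities of 6384444 to 6810557 and rank correlations with each other of 0.961 to 0.985. The number of arrays, 2 for attachment and 3 for each low-attachment condition, limits the precision. Of 7 tested A549 and lung epithelial markers, the keratin KRT18 had the highest mean, at 3478 to 4579 across arrays, and it rose with FP001 against attachment plates (0.30 ± 0.06, limma, adjusted p = 0.00917, and 0.0894 without attachment replicate 2). The other KRT18 probe set, which was not tested, had means of 283.6 with FP001, 277.8 on low-attachment plates and 276.3 on attachment plates. The epithelial adhesion molecule EPCAM read 206.1, 134.3 and 153.8 with FP001, 233.9, 205.1 and 222.0 on low-attachment plates, and 252.0 and 216.3 on attachment plates. It fell with FP001 against attachment plates (−0.53 ± 0.16, adjusted p = 0.042), a call that was lost without attachment replicate 2 (0.252) or 3 (0.0794), low-attachment replicate 2 (0.0525) or 3 (0.0594), or FP001 replicate 2 (0.113) or 3 (0.0929), and under quantile normalization (0.0719). In normal medium the keratin KRT7 was the only called gene of these 7 and fell (−0.54 ± 0.15, adjusted p = 0.0422). That call was lost without attachment replicate 2 (0.113) or 3 (0.215), low-attachment replicate 1 (0.0969) or 2 (0.0665) or FP001 replicate 3 (0.0635), under quantile normalization (0.0622) and with no filter on dim probe sets (0.0537).

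The promoter of NOX1 is printed because transcription factors of the GATA family, with CDX2, are known to act on this gene in gut epithelial cells. The window runs from 250 bases before to 50 bases after the RefSeq start of the gene, at chrX:100874310-100874609 on the minus strand of GRCh38.p14. Capitals mark the letters GATAA on either strand.
NOX1 promoter: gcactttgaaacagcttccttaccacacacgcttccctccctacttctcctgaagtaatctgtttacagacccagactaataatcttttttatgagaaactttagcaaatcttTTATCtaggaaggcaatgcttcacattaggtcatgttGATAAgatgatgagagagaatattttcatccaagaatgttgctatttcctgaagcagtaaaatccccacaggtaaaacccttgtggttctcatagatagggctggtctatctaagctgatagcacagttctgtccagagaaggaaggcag
The window held GATAA at 2 places, starting 137 bases before the start on the reverse strand and 100 bases before it on the forward strand. Of 35116 promoter windows of the same length, 22.7% held GATAA on either strand. The letters TTTAT, the core of the CDX motif, also occurred at 2 places, 1 of which overlaps the reverse GATAA match, and 34.9% of windows held them. TGACTCA, the AP-1 motif (in 4.95% of windows), did not occur in this window. These matches describe the letters only.

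NOX1 was highest on low-attachment plates in normal medium, somewhat lower with FP001, and lowest on attachment plates. With FP001 it read 142.8, 106.9 and 128.6 in replicates 1, 2 and 3. On low-attachment plates in normal medium it read 187.8, 152.2 and 201.8. On attachment plates it read 39.3 in replicate 2 and 22.5 in replicate 3. No 2 of the 3 conditions overlapped. On the log2 scale the mean was 6.97 ± 0.21 with FP001, 7.49 ± 0.21 on low-attachment plates (SD, n = 3 each) and 4.89 ± 0.57 on attachment plates (SD, n = 2), or 125.2, 179.3 and 29.7 as intensities. The attachment arrays thus had the widest spread of the 3 conditions. In bulk RNA, more cells expressing a gene and more RNA per cell cannot be told apart.

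**Figure D1:**
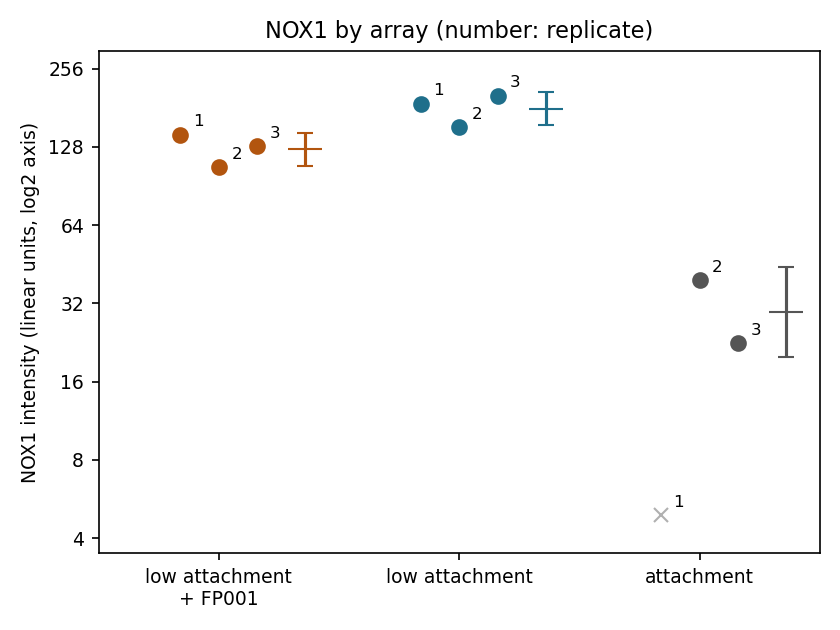
NOX1 intensity (linear units on a log2 axis) on each array of low-attachment plates with FP001, low-attachment plates in normal medium and attachment plates. Circles are arrays with their replicate number, bars are the mean ± SD of log2 values, and the grey cross is the left-out attachment replicate 1 (4.9). The 6 low-attachment arrays lie between 106.9 and 201.8, above the 2 attachment arrays at 22.5 and 39.3.

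Against the other probe sets of the same array, NOX1 stood at percentile 82.2 to 85.9 with FP001 and 86.4 to 89.2 on low-attachment plates. On attachment plates it stood at percentile 63.2 in replicate 2 and 48.5 in replicate 3, so in replicate 3 it was just under the median probe set (0.949 times the median). Whether the probe set read NOX1 RNA above background there cannot be said, as no detection call was used here. On the left-out attachment replicate 1 the row read 4.9, at percentile 17.1, but values of that array did not track those of the same probe sets on any other array, so this may be no reading of NOX1.

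The difference from attachment plates was 2.08 ± 0.22 on the log2 scale with FP001 (4.22-fold higher) and 2.59 ± 0.22 on low-attachment plates in normal medium (6.04-fold higher), with the SE from limma. If the attachment level was partly background, these folds are too small. Both use the same 2 attachment arrays. Among 10916 genes, ordered by this difference, NOX1 was number 11 with FP001 and number 4 without it. The size moved with the attachment arrays used. Without attachment replicate 2 the differences were 2.48 and 3.00, and without attachment replicate 3 they were 1.67 and 2.19. With the left-out array, whose value may be no reading of NOX1, they were 2.94 and 3.46.

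With FP001, NOX1 was 1.43-fold lower than on low-attachment plates in normal medium (log2 difference −0.52 ± 0.19, beside an SD of 0.21 within each group). Arrays with the same replicate number varied together in these 2 conditions. Within each such pair NOX1 was lower with FP001, by −0.39, −0.51 and −0.65 on the log2 scale in pairs 1, 2 and 3. As the readings of these conditions did not overlap, any pairing of their arrays would have given the same direction. The median gene differed by 0.01. NOX1 was number 92 among 10916 genes ordered from the lowest difference.

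Of the other oxidases of the family, 4 of 6 were named on the array and none was bright enough for the test, which took genes at or above the array median on at least 3 of the 8 arrays. NOX4, an oxidase known from kidney, read 9.5 to 14.5 across the 8 arrays, and NOX3, known from the inner ear, 14.5 to 20.9. The dual oxidases DUOX1 and DUOX2, which release hydrogen peroxide at epithelial surfaces, read 17.5 to 23.2 and 17.1 to 23.1. With no filter, their log2 differences from attachment plates were between 0.12 and 0.40 with FP001 and between 0.01 and 0.39 on low-attachment plates in normal medium. All missed the threshold of an adjusted p of 0.05 (limma, from 0.11 to 0.63 with FP001 and from 0.0988 to 0.985 without it). CYBB, the phagocyte oxidase NOX2, and NOX5 were not named here.

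Of 19 oxidase partners and regulators, 10 were named and 9 tested. The partners that NOX1 itself binds did not pass the test. The organizer NOXO1 read 94.7, 82.9 and 95.3 with FP001, 96.8, 88.4 and 105.0 on low-attachment plates, and 79.6 and 85.7 on attachment plates. Its log2 difference from attachment plates was 0.14 ± 0.11 with FP001 and 0.22 ± 0.11 without (limma, adjusted p = 0.396 and 0.223). The low-attachment readings in normal medium all lay above the attachment readings, and those with FP001 overlapped them. The activator NOXA1 read 100.1, 94.4 and 94.7 with FP001, 107.1, 95.8 and 102.9 on low-attachment plates, and 89.1 and 91.5 on attachment plates. No low-attachment array was under an attachment array for NOXA1, yet the differences of 0.09 ± 0.09 with FP001 and 0.17 ± 0.09 without missed the threshold (limma, adjusted p = 0.49 and 0.261). CYBA and the Rac genes were not named here.

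Of the 9 partners tested, 2 rose on low-attachment plates with FP001 and the same number without it, and none fell. Over all genes 8.08% rose and 11.4% fell with FP001, and 4.31% rose and 5.76% fell without it. The genes that rose were ARHGDIB and ARHGDIA, which encode inhibitors that hold small GTPases such as Rac in the cytosol. ARHGDIB read 26.3, 27.0 and 27.4 with FP001, 21.0, 24.2 and 21.6 on low-attachment plates, and 11.2 and 14.4 on attachment plates, so the conditions did not overlap. Its log2 difference was 1.08 ± 0.15 with FP001 (limma, adjusted p = 0.00121) and 0.81 ± 0.15 without (0.00815). On attachment plates ARHGDIB lay under the array median, and it passed the filter on the 3 FP001 arrays and 1 low-attachment array, where it was higher. With no filter its adjusted p was 0.00111 and 0.00752. ARHGDIA read 1068.9, 983.9 and 984.3 with FP001, 907.9, 950.0 and 927.3 on low-attachment plates, and 738.5 and 742.6 on attachment plates. Its difference was 0.45 ± 0.07 (adjusted p = 0.00287) and 0.33 ± 0.07 (0.0207). Without FP001 the call of ARHGDIB was lost when attachment replicate 2 was left out (adjusted p = 0.0779). ARHGDIA there missed the threshold without attachment replicate 2 (0.111) or 3 (0.0939) or low-attachment replicate 2 (0.0615) or 3 (0.0565).

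The other 5 tested partners did not pass either. The adaptor SH3PXD2B, a relative of the phagocyte organizer, came closest, with log2 differences of −0.26 ± 0.09 with FP001 and −0.29 ± 0.09 without (limma, adjusted p = 0.0692 and 0.0676). SH3PXD2A, its relative, had −0.03 ± 0.15 and 0.11 ± 0.15. CYBC1, a chaperone of the phagocyte oxidase, had −0.09 ± 0.11 and 0.00 ± 0.11, and the proton channel HVCN1 had 0.17 ± 0.11 in both. The Rac exchange factor ARHGEF7 had 0.30 ± 0.16 and −0.03 ± 0.16, and its other probe set read 83.4 to 101.7 with FP001, 91.0 to 112.2 on low-attachment plates and 108.1 to 110.3 on attachment plates. The 2 probe sets thus disagreed in direction for FP001. DUOXA2, which matures DUOX2, was too dim for the test at 9.8 to 17.8.

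**Figure D2:**
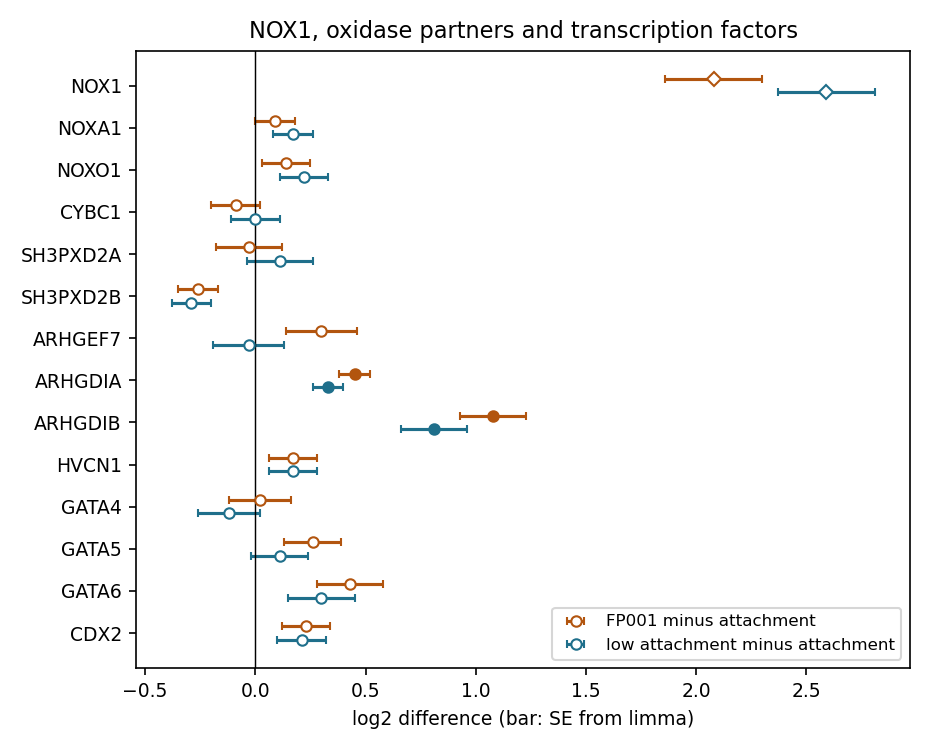
Log2 difference from attachment plates (x axis) of NOX1, 9 oxidase partners and 4 transcription factors, for low-attachment plates with FP001 (orange, upper) and in normal medium (blue, lower). Bars are the SE from limma, filled circles have an adjusted p under 0.05, and the open diamonds of NOX1 carry no test. NOX1 lies at 2.08 and 2.59, and ARHGDIB, the largest of the partners, at 1.08 and 0.81.

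Of 7 transcription factors reported to act on the NOX1 promoter, 4 were named and tested. None passed in either comparison with attachment plates (limma, with 1 at an unadjusted p under 0.05 with FP001 and 0 without). Over all genes, 19.5% passed with FP001 and 10.1% without, and 4 genes are too few to set against these shares. GATA6, a GATA factor of gut and lung epithelium, read 152.2, 126.8 and 142.3 with FP001, 133.6, 121.7 and 127.4 on low-attachment plates, and 125.4 and 85.7 on attachment plates. Its 2 attachment arrays were far apart, and the log2 differences were 0.43 ± 0.15 and 0.30 ± 0.15 (adjusted p = 0.0639 and 0.23). Quantile normalization brought GATA6 with FP001 to 0.52 and past the threshold (adjusted p = 0.0277). CDX2, a homeobox factor of the intestine, had 0.23 ± 0.11 and 0.21 ± 0.11. GATA5 had 0.26 ± 0.13 and 0.11 ± 0.13, and GATA4 had 0.02 ± 0.14 and −0.12 ± 0.14.

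The redox genes around the oxidase, beside its partners and factors, were taken in 4 further lists. Over all lists together, 71 genes other than NOX1 were tested. With FP001, 14 rose and 3 fell against attachment plates (23.9%, where 19.5% of all genes passed). On low-attachment plates in normal medium, 11 rose and 3 fell (19.7%, where 10.1% of all genes passed). These counts moved with the arrays used. Without either attachment array fewer listed genes passed, and fewer of all genes, but 1 array was then left in that group. In normal medium the count was 7 without low-attachment replicate 1, 2 or 3, where 734, 738 and 719 of all genes passed (1100 with the 8 arrays). It was 9 there without FP001 replicate 2 (909 of all genes). With FP001 the count was 11 without FP001 replicate 1, where 1278 of all genes passed (2126 with the 8 arrays).

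Of 24 tested genes linked to superoxide and peroxide removal, 5 rose with FP001 and 2 without it, and none fell (limma). No superoxide dismutase was among the 24. Over all genes, 8.08% rose and 11.4% fell with FP001, and 4.31% rose and 5.76% fell without it. The list median log2 difference was 0.19 and 0.12, against 0.02 and 0.01 over all genes. Of the 6 named glutathione peroxidases, GPX1, GPX2 and GPX3 were among those that rose. GPX4 (0.16 ± 0.09 and 0.14 ± 0.09), GPX7 (0.39 ± 0.15 and 0.28 ± 0.15) and GPX8 (0.17 ± 0.13 and 0.13 ± 0.13) did not pass. GPX3, the secreted form, read 55.2, 54.0 and 53.6 with FP001, 43.4, 52.2 and 50.8 on low-attachment plates, and 31.5 and 33.6 on attachment plates, with log2 differences of 0.74 ± 0.11 (adjusted p = 0.0019) and 0.58 ± 0.11 (0.0102). GPX2, the form of gut epithelium, read 962.5, 877.2 and 869.5 with FP001, 970.8, 919.7 and 896.8 on low-attachment plates, and 757.0 and 599.9 on attachment plates. Every low-attachment array was above both attachment arrays for GPX3 and GPX2. The differences of GPX2 were 0.42 ± 0.10 (adjusted p = 0.0189) and 0.46 ± 0.10 (0.0192).

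GPX1, the cytosolic glutathione peroxidase, rose with FP001 by 0.54 ± 0.10 (limma, adjusted p = 0.00673), catalase (CAT) by 0.35 ± 0.10 (0.0328) and thioredoxin (TXN) by 0.22 ± 0.06 (0.028). In normal medium the differences were 0.36 ± 0.10 for GPX1, 0.33 ± 0.10 for CAT and 0.10 ± 0.06 for TXN (adjusted p = 0.0523, 0.0584 and 0.289). Quantile normalization brought these 3 genes past the threshold in normal medium too (0.0256, 0.0389 and 0.049). The peroxiredoxins PRDX1 and PRDX6 had 0.21 ± 0.07 and −0.23 ± 0.09 with FP001 (adjusted p = 0.0537 and 0.0837), and PRDX1 passed under quantile normalization (0.32, 0.0131). All 3 superoxide dismutases were not named here. In normal medium GPX3 missed the threshold without attachment replicate 2 (0.086) and GPX2 without attachment replicate 3 (0.147). With FP001, GPX1 missed it without attachment replicate 3 (0.0574), and GPX2 without attachment replicate 3 (0.143) or FP001 replicate 1 (0.053). CAT missed it without attachment replicate 2 (0.145) or 3 (0.113) or FP001 replicate 1 (0.0828) or 2 (0.0657). TXN missed it without the same 4 arrays (0.0922, 0.133, 0.0592 and 0.0829) and with no filter on dim probe sets (0.0601).

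**Figure D3:**
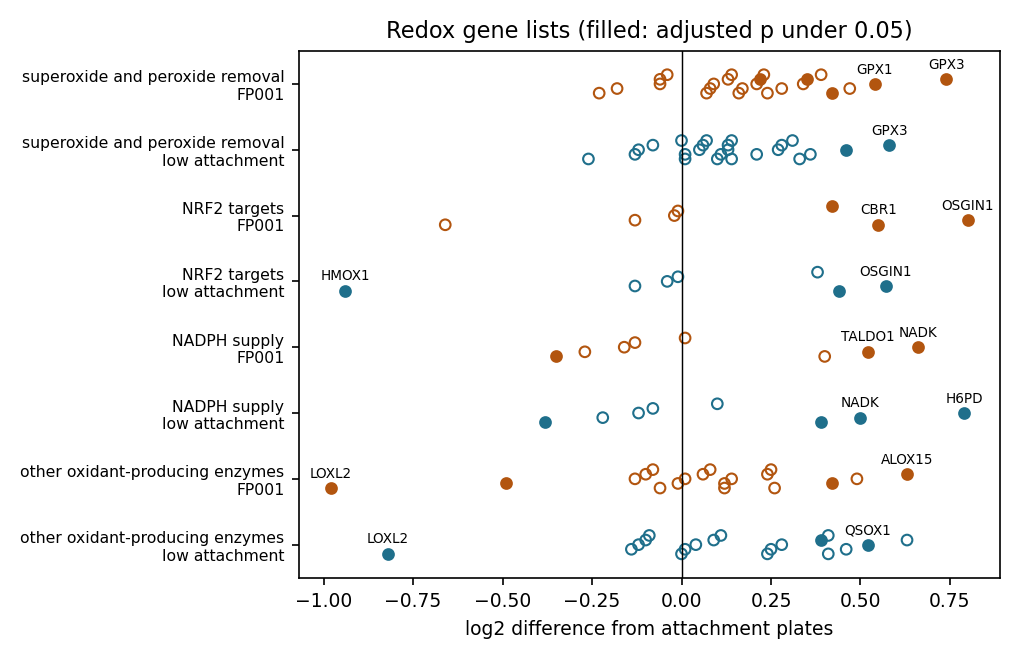
Log2 difference from attachment plates (x axis) of each tested member of 4 redox gene lists, for low-attachment plates with FP001 (orange) and in normal medium (blue). Each circle is 1 gene, filled where its adjusted p is under 0.05, and called genes past 0.5 in size are named. GPX3 lies at 0.74 and 0.58, and LOXL2 at −0.98 and −0.82.

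NRF2 is the transcription factor that answers to oxidants, and KEAP1 is the sensor that has it degraded. Of 20 genes of this pathway, 7 were named and tested. Of these, 3 rose with FP001 and none fell, and 2 rose and 1 fell without it. Over all genes, 19.5% passed with FP001 and 10.1% without. OSGIN1, an oxidant-induced target, read 125.9, 129.8 and 129.4 with FP001, 95.3, 123.7 and 111.0 on low-attachment plates, and 68.0 and 79.5 on attachment plates. Its log2 difference was 0.80 ± 0.12 (limma, adjusted p = 0.00182) and 0.57 ± 0.12 (0.0152), with no overlap with attachment plates. KEAP1 itself rose by 0.42 ± 0.08 and 0.44 ± 0.08 (0.00509 and 0.00644). The carbonyl reductase CBR1 rose with FP001 (0.55 ± 0.11, 0.00726), and in normal medium had 0.38 ± 0.11 (0.0505, and 0.0294 under quantile normalization).

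Heme oxygenase 1 (HMOX1) went the other way. It read 323.7, 524.0 and 571.4 with FP001, 273.7, 425.6 and 469.9 on low-attachment plates, and 688.5 and 768.0 on attachment plates. All 6 low-attachment arrays were under both attachment arrays. The fall was −0.94 ± 0.25 in normal medium (limma, adjusted p = 0.0412), and with FP001 the difference was −0.66 ± 0.25 (0.0896). NFE2L2, the gene of NRF2, had −0.13 ± 0.12 and −0.04 ± 0.12. HMOX1 in normal medium missed the threshold without attachment replicate 2 (0.146) or 3 (0.189), low-attachment replicate 1 (0.0826) or 2 (0.0589) or FP001 replicate 2 (0.0573). OSGIN1 missed it there without attachment replicate 2 (0.135), and KEAP1 without attachment replicate 3 (0.0549).

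NOX1 takes its electrons from NADPH. Of 16 genes that make NADPH or its precursor, 8 were named and tested. Of these, 2 rose and 1 fell with FP001, and 3 rose and 1 fell without it. The share passing over all genes was 19.5% with FP001 and 10.1% without. TALDO1, an enzyme of the pentose phosphate pathway, rose by 0.52 ± 0.09 and 0.39 ± 0.09 (limma, adjusted p = 0.00399 and 0.0237). TKT, PGD and PGLS of the same pathway did not pass. TKT had −0.16 ± 0.06 and −0.22 ± 0.06 (0.0906 and 0.0508, and 0.0476 in normal medium with a pseudocount of 16). PGD had −0.13 ± 0.07 and −0.12 ± 0.07, and PGLS 0.01 ± 0.11 and 0.10 ± 0.11. For TKT and PGD every low-attachment array was under both attachment arrays. The cytosolic NAD kinase NADK rose by 0.66 ± 0.13 and 0.50 ± 0.13 (0.00674 and 0.0331). H6PD, which makes NADPH in the endoplasmic reticulum, read 106.8, 90.7 and 95.4 with FP001, 137.4, 110.5 and 136.9 on low-attachment plates, and 85.5 and 63.8 on attachment plates. It rose in normal medium (0.79 ± 0.15, 0.0083) and had 0.40 ± 0.15 with FP001 (0.0788). The mitochondrial NAD kinase NADK2 fell by −0.35 ± 0.10 and −0.38 ± 0.10 (0.0291 and 0.0339). Under quantile normalization NADK2 missed the threshold in both comparisons (0.0702 with FP001 and 0.0557 in normal medium). With FP001, NADK missed the threshold without attachment replicate 3 (0.0586), and NADK2 without attachment replicate 2 (0.221), FP001 replicate 1 (0.0747) or FP001 replicate 2 (0.0628). In normal medium H6PD missed it without attachment replicate 3 (0.0805). TALDO1 missed it there without attachment replicate 2 (0.153) or 3 (0.0721) or low-attachment replicate 1 (0.0597) or 3 (0.0714), and NADK without attachment replicate 3 (0.233), low-attachment replicate 1 (0.0606), 2 (0.0906) or 3 (0.0556) or FP001 replicate 2 (0.0534). NADK2 missed it without attachment replicate 2 (0.241) or 3 (0.0531), low-attachment replicate 1 (0.0667), 2 (0.0617) or 3 (0.0943) or FP001 replicate 2 (0.0549).

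Of 19 tested enzymes that make oxidants by other routes, 2 rose and 2 fell with FP001, and 2 rose and 1 fell without it, beside 8.08% rising and 11.4% falling over all genes with FP001 and 4.31% and 5.76% without. LOXL2, a lysyl oxidase that crosslinks collagen, read 101.8, 163.7 and 171.7 with FP001, 121.2, 174.5 and 187.9 on low-attachment plates, and 268.4 and 291.0 on attachment plates. It fell by −0.98 ± 0.23 and −0.82 ± 0.23 (limma, adjusted p = 0.0157 and 0.0471). With FP001 the lipoxygenase ALOX15 rose (0.63 ± 0.16, 0.0211), the nitric oxide synthase NOS3 rose (0.42 ± 0.11, 0.0225) and ERO1B, an oxidase of protein folding, fell (−0.49 ± 0.12, 0.0205). In normal medium NOS3 rose by 0.39 ± 0.11 (0.0488) and the sulfhydryl oxidase QSOX1 by 0.52 ± 0.15 (0.0494). NOS3 there missed the threshold under quantile normalization (0.054), with no filter (0.063), a pseudocount of 16 (0.0517) or the replicate block (0.0905). LOXL2 there missed it under quantile normalization (0.0554) and with no filter (0.057), and QSOX1 with no filter (0.0598). ALOX15 was under the array median on both attachment arrays and passed the filter through the 6 low-attachment arrays, and with no filter its adjusted p was 0.024.

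With FP001, LOXL2 missed it without attachment replicate 2 (0.0823) or 3 (0.0869). ALOX15 missed it without either (0.0996 and 0.0881) or without FP001 replicate 1 (0.0566), ERO1B without either (0.128 and 0.0688) or without FP001 replicate 2 (0.0626), and NOS3 without either (0.099 and 0.0869) or without FP001 replicate 1 (0.0578) or 2 (0.0575). In normal medium NOS3 missed it without any 1 of the 8 arrays (adjusted p from 0.0548 to 0.167), LOXL2 without any 1 except FP001 replicate 1 (0.0505 to 0.196 in the others), and QSOX1 without any 1 except FP001 replicates 1 and 2 (0.0587 to 0.279 in the others).

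Between FP001 and normal medium on low-attachment plates, where NOX1 differed by −0.52 ± 0.19, none of the 71 listed genes passed (limma). At an unadjusted p under 0.05 there were 11 of these 71, beside 1265 of all 10916 genes. Of all genes, 0.11% passed, 12 of 10916 (0.0366% rose and 0.0733% fell), and 142 with the replicate number as a block, which again left no listed gene. NOXO1 and NOXA1 had −0.09 ± 0.10 and −0.08 ± 0.08 (adjusted p = 0.771 and 0.751), and GATA6 had 0.14 ± 0.13 (0.73). GPX2 and GPX3 had −0.04 ± 0.09 and 0.16 ± 0.10. Among the listed genes the lowest difference was −0.57 and the highest 0.38, both in enzymes that make oxidants by other routes.

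Neighbours of NOX1 on chromosome X were read to see whether a change was shared along the chromosome. Of the 5 nearest named genes on each side in RefSeq order, 6 were tested: DIAPH2, TSPAN6, SYTL4, TRMT2B, CENPI and TIMM8A. Their log2 differences from attachment plates ran from −0.27 to 0.25 with FP001 and from −0.11 to 0.29 in normal medium. None passed (limma, with 2 at an unadjusted p under 0.05 in each comparison). Over all genes, 19.5% passed with FP001 and 10.1% without, and 6 genes are too few to set against these shares. TRMT2B, a tRNA methyltransferase, came closest in normal medium (0.29 ± 0.08, adjusted p = 0.0515). PCDH19, TNMD, TMEM35A and DRP2 were too dim for the test. Genes between these that were not named here were not read.

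The genes most like NOX1 were sought by the root mean square distance between log2 values over the 8 arrays, after each gene's mean was subtracted. They were chosen for likeness, so their levels carry no test. The distance of a median gene was 1.07. The nearest was SLPI, a secreted protease inhibitor of mucosa, at 0.32. It read 1232.0, 879.6 and 767.5 with FP001, 1203.7, 1175.1 and 957.9 on low-attachment plates, and 283.9 and 227.6 on attachment plates. VSIG1, an immunoglobulin-type adhesion protein of stomach epithelium, and TPPP3, a microtubule-binding protein, followed at 0.38 each. Next came FCGBP, a mucus protein that binds the Fc part of IgG (0.43), PRR15, the alcohol dehydrogenase ADH6 and C9orf152 (0.44 each). The last of the 10 were TAT, tyrosine aminotransferase (0.46), the tetraspanin TSPAN8 (0.47) and the trefoil peptide TFF1 (0.50), and the next gene, TPPP, stood at 0.51.

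All 10 read higher on each of the 6 low-attachment arrays than on either attachment array, as NOX1 did. Their log2 differences from attachment plates ran from 1.21 to 2.73 with FP001 and from 1.58 to 2.49 in normal medium. Between FP001 and normal medium they ran from −0.44 in FCGBP to 0.30 in VSIG1, where NOX1 had −0.52. On low-attachment replicate 3, the highest array for NOX1, FCGBP read 213.5, its lowest value in that condition. SLPI, PRR15 and TAT too read their lowest of that condition there. The others of the 10 read theirs on replicate 2, as NOX1 did. The list depended on the measure. With Pearson correlation, which ignores the size of a change, 0 of the 10 remained, and 6 remained without attachment replicate 3. The genes most opposite to NOX1 were IGFBP7, a secreted binding protein (distance 0.36 to the turned profile), the MAP kinase phosphatase DUSP1 (0.36) and the matrix protein FBN2 (0.37).

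**Figure D4:**
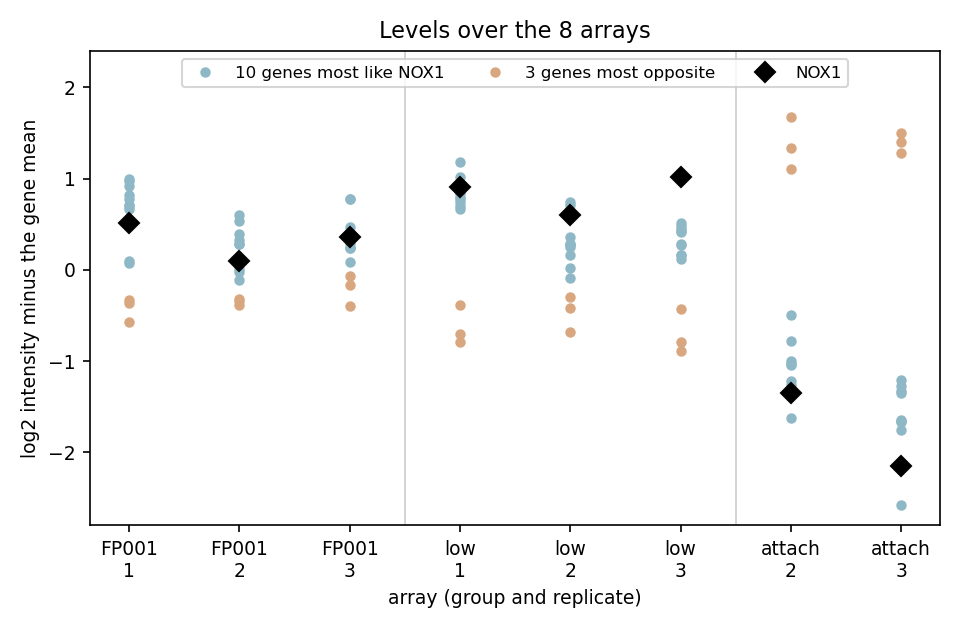
Log2 intensity minus each gene's mean over the 8 arrays (y axis) by array (x axis), for NOX1 (black diamonds), the 10 genes most like it (blue) and the 3 most opposite (orange). The genes were chosen for this likeness. On low-attachment replicate 3, where NOX1 read 201.8, the black diamond lies above the blue circles.

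Since NOX1 is known best from gut epithelium, intestinal markers were read beside it. Of 20, 12 were named and 10 tested, and 3 rose in both comparisons with attachment plates, namely KRT20, TSPAN8 and VIL1 (over all genes 8.08% rose with FP001 and 4.31% without). KRT20, an intestinal-type keratin, read 420.3, 143.8 and 207.9 with FP001, 211.0, 74.5 and 81.2 on low-attachment plates, and 31.9 and 22.1 on attachment plates. Its log2 difference was 3.13 ± 0.47 and 2.03 ± 0.47 (limma, adjusted p = 0.00186 and 0.0236). TSPAN8 had 1.67 ± 0.29 and 1.72 ± 0.29 (0.0039 and 0.00545), and villin (VIL1) 0.44 ± 0.14 and 0.59 ± 0.14 (0.0453 and 0.0215). With FP001, VIL1 missed the threshold with no filter (0.0584), a pseudocount of 16 (0.0514) or the replicate block (0.0556). CDX1, CDX2, GPA33, TFF3, PHGR1, CA4 and AQP8 did not pass, and GUCY2C and CA1 were too dim for the test. Quantile normalization brought CDX1 with FP001 past the threshold (0.36, limma, adjusted p = 0.0378). The summed intensity of the 12 was 624.7 to 973.3 with FP001, 529.0 to 775.0 on low-attachment plates and 414.9 to 418.8 on attachment plates.

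In normal medium the call of KRT20 was lost without attachment replicate 2 (adjusted p = 0.0877) or 3 (0.151), and that of VIL1 without attachment replicate 2 (0.141) or 3 (0.0818). VIL1 with FP001 missed it without attachment replicate 2 (0.219) or 3 (0.109), low-attachment replicate 2 (0.0595) or FP001 replicate 1 (0.11), 2 (0.093) or 3 (0.0592). Leukocyte markers, of which 3 of 8 were named (LYZ, CD68 and CD14), summed to 621.9 to 953.5 with FP001, 557.0 to 789.3 on low-attachment plates and 423.6 to 502.9 on attachment plates. LYZ, the secreted enzyme lysozyme, rose by 2.60 ± 0.36 and 2.26 ± 0.36 (limma, adjusted p = 0.00124 and 0.00414). It too was under the array median on both attachment arrays, and with no filter its adjusted p was 0.0014 and 0.00488. CD68, a lysosomal protein of macrophages, rose with FP001 by 0.74 ± 0.17 (0.0146, lost without attachment replicate 2 at 0.0645 or 3 at 0.0922), and in normal medium had 0.45 ± 0.17 (0.122). CD14 did not pass in either (0.61 and 0.796). Endothelial markers, 3 of 4 named, were too dim for the test, and of the fibroblast markers 2 of 5 were named and LUM was tested and did not pass (adjusted p = 0.256 with FP001 and 0.872 without). The fibroblast sum was 82.7 to 440.1 with FP001, 27.9 to 250.4 on low-attachment plates and 31.6 to 96.7 on attachment plates. The part of any of these markers in the level of NOX1 was not tested.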

How the data were processed

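RNA of A549 cells was read on 9 Affymetrix arrays. Total RNA (100 ng) was labelled by a 3' in vitro transcription protocol, per the labels. The authors deposited linear intensities for every probe set. The submitters' processing notes name MAS5. Not given in the sources used here are the MAS5 version and settings and the part of the transcript that the NOX1 probe set reads. The probe-set identifiers look like those of a whole-transcript array, which the 3' protocol does not match. Values were taken as already scaled, as log2 with no pseudocount.

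Gene symbols came from the platform annotation and were brought up to date by gene identifier in RefSeq (16098 probe sets had 1 symbol and all matched, 0 had several, 37519 none). The promoter is RefSeq's. Genes were kept where at or above the array median on at least 3 of the 8 arrays, so a gene that reached it on the 2 attachment arrays alone was dropped. Each of 10916 genes was represented by its brightest probe set on average. All 3 groups were fitted together with limma 3.58.1 in R 4.3.3 (lmFit, eBayes with a trend, 5 residual and 5.6 prior degrees of freedom), two-sided. Genes were called at a Benjamini-Hochberg adjusted p under 0.05 over all genes. The script was tested on simulated data.

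NOX1 and the gene lists were chosen with earlier results of these data known. Named were all measured oxidases, partners and promoter factors, up to 4 called genes of each other list per comparison (TXN, the fifth, to complete its count), the chromosome X neighbours and the 10 genes most like and 3 most opposite NOX1. PRDX1, PRDX6, NFE2L2, LUM, EPCAM, TPPP and the genes given with FP001 against normal medium or as not passing were added after their values were seen.

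Replicate numbers come from the titles. Deviations from the group mean correlated at 0.483, 0.309 and 0.231 between same-numbered arrays with and without FP001, so numbers were taken to pair these. Attachment arrays showed no such pairing (from −0.256 to 0.138 for same-numbered arrays). Alternatives were quantile normalization, all 9 arrays, other filters, a pseudocount of 16, the replicate block and leaving out each array.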

Additional observations from a re-analysis of the deposited data

How the results depend on the processing

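NOX1 kept its direction in all 3 comparisons under each alternative run. Leaving out 1 array at a time, its log2 difference ran from 1.67 to 2.48 for FP001 against attachment plates, from 2.19 to 3.00 for low attachment against attachment plates, and from −0.64 to −0.40 for FP001 against normal medium. With quantile normalization it was 2.11, 2.60 and −0.49, and with a pseudocount of 16 it was 1.62, 2.08 and −0.47. With all 9 arrays it was 2.94 ± 0.69 and 3.46 ± 0.69 against attachment plates.

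With all 9 arrays 0 genes passed in any comparison, over all genes or the lists (limma; 330, 198 and 11 genes at an unadjusted p under 0.05 in the same order), and the array left out does not follow its group. There 6 called genes turned direction: ALOX15 (−0.33), CBR1 (−0.15), VIL1 (−0.10), LOXL2 (0.18) and NADK2 (0.83) with FP001, and KRT7 (1.38), LOXL2 (0.34) and NADK2 (0.80) in normal medium. Leaving out 1 array, the genes passing ran from 660 to 2305 for FP001 against attachment plates (listed genes 8 to 21), from 362 to 1301 for low attachment against attachment plates (3 to 17), and from 0 to 11 for FP001 against normal medium (0 to 0).

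With quantile normalization the rises and falls against attachment plates were 1241 and 968 with FP001 (882 and 1244 as deposited) and 612 and 512 without (471 and 629). Listed genes split 14 to 1 in normal medium, against 11 to 3 as deposited. With the replicate number as a block, 142 genes passed between FP001 and normal medium, against 12. Against attachment plates the block raised the calls over all 10916 genes to 2367 with FP001 and 1375 without, against 2126 and 1100. Of the 24 genes linked to superoxide and peroxide removal, 9 and 4 passed with it, against 5 and 2. Numbers do not pair the attachment arrays, however. The block also made HMOX1 (−0.42, limma, adjusted p = 0.00237) pass with FP001. In normal medium it made CBR1 (0.43, 0.0123), CD68 (0.30, 0.0431) and the neighbour TRMT2B (0.28, 0.0391) pass. KRT20 (1.10, limma, adjusted p = 0.00647) and KRT18 (0.25, 0.0465) passed between FP001 and normal medium with the block. The other KRT18 probe set was not tested. The 10 genes most like NOX1 shared 5 members with a pseudocount of 16, 5 with all 9 arrays and 0 with Pearson correlation. The cause of these changes was not tested.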
